A study of Mus musculus with 6 samples.

Results

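The 38 genes examined here encode enzymes and transporters of glycolysis, gluconeogenesis and glycogen metabolism. They were taken by their symbols from the gene tables of epididymal white adipose tissue (eWAT) of mice with cancer-associated cachexia (CAC) and of control mice (CONT). They filled 39 of the 55039 rows, because Aldoa was listed under 2 Ensembl identifiers. Every mouse was a male C57BL/6 animal aged 6 to 7 weeks when the groups were formed. CAC mice carried Lewis lung carcinoma (LLC) cells, a mouse lung tumor line, placed under the skin of the lower back, and CONT mice were given phosphate-buffered saline (PBS) alone. The fat was taken 28 days after injection from 3 mice of each group, and each mouse gave 1 library of polyadenylated RNA. The tissue was a whole fat pad, so fewer cells of a type and less RNA per cell cannot be told apart in any value below.

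Glycolysis turns glucose into pyruvate and lactate, and gluconeogenesis runs the same route backwards through a few enzymes of its own. White fat takes up glucose through the insulin-responsive transporter GLUT4 and the insulin-independent GLUT1, and uses part of it to make the glycerol backbone of triglyceride. Phosphoenolpyruvate carboxykinase serves this end in fat by making glycerol phosphate from pyruvate when glucose is scarce, a route called glyceroneogenesis. Fat also keeps a small glycogen store, built by glycogenin, glycogen synthase and the branching enzyme and taken down by glycogen phosphorylase.

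The libraries held 15713794 to 25926425 counted reads. Reads of the 39 rows made up 0.507% to 1.01% of a library. CONT replicate 1 stood apart from the other libraries, with 30.2% of its reads on mitochondrial genes against 3.89% to 5.04% elsewhere, and values without it are given for some members. Summed levels of 10 adipocyte markers were 22288 to 54333 CPM (counts scaled to the TMM-adjusted library size) in CONT and 35880 to 46936 CPM in CAC, so markers of fat were abundant in every library. The CONT sum was highest in replicate 1, and the sums of CONT replicates 2 and 3, 22288 and 26325 CPM, were below all 3 CAC sums. Of the 10 genes Pnpla2 alone was higher in CAC with no overlap. Cfd alone was at 6453 and 7807 CPM in CONT replicates 2 and 3 and at 14515.5 to 22183 CPM in CAC. When CONT replicate 1 was left out, the log2 fold changes of Adig, Cfd and Pnpla2, the highest of the 10, were 1.43, 1.43 and 1.40. Their DESeq2 adjusted p was 2e-09, 6.76e-06 and 3.81e-06 and their edgeR adjusted p 0.2, 0.237 and 0.229. The others were at 0.86 (Cidec), 0.32 (Adipoq), 0.06 (Fabp4), 0.02 (Lipe), -0.0002 (Retn), -0.14 (Slc2a4) and -0.48 (Plin1). The part of adipocyte content in the members' levels was not tested. The epididymis and testis lie against this fat pad, and 8 of their markers summed to 208 to 8803 CPM in CONT and 0 to 906 CPM in CAC. Genes of the testis were found in CONT replicate 2 and CAC replicate 3, as described beside Hk1, and genes of the epididymis in CONT replicates 1 and 3. Gpx5 was at 5354 CPM in CONT replicate 3 and Lcn5 at 70.1 CPM in CONT replicate 1. Of the epididymis markers, Crisp1 and Lcn5 held no reads in any CAC library, and Adam7, Gpx5 and Lcn8 were at no more than 0.340 CPM there. The highest CAC sum was that of CAC replicate 3, where Prm1, Prm2 and Tnp1 of the testis were at 301, 518 and 86.0 CPM. The part of testis and epididymis RNA in the levels of other members was not tested.

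The question was whether the genes of glucose and glycogen metabolism differed between the eWAT of CAC and CONT mice. Slc2a1 (GLUT1) was higher in every CAC library, Gyg (glycogenin), Gys1 (muscle-type glycogen synthase) and Ugp2 (UDP-glucose pyrophosphorylase) had higher group means, and Pfkfb4 had a lower one. None of these passed the main test after adjustment over all genes. With edgeR's quasi-likelihood test, 0 of the 39 rows had a Benjamini-Hochberg adjusted p under 0.05, as did 0% of the 17296 genes tested, and the smallest adjusted p was 0.224, for Slc2a1. All 39 rows were among the genes tested.

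At an unadjusted p under 0.05 in edgeR's test, 4 rows (10.3%) were higher in CAC, against 6.31% of all genes tested, and 1 row (2.56%) was lower, against 6.95%. The libraries of the groups did not overlap, with CAC higher, for 5 rows (12.8%, against 11.8% of all genes tested), and with CAC lower for 3 rows (7.69%, against 10.7% of all genes tested). With relative log expression scaling the rows higher with no overlap were 4 in place of 5, without Gyg. These shares were near the background. Of the 5 genes past the unadjusted threshold, Slc2a1 stayed past it whichever library was left out. Gyg and Ugp2 did so only without CAC replicate 1, and Gys1 and Pfkfb4 only without CONT replicate 1 or CAC replicate 3. DESeq2 gave an adjusted p under 0.05 for 1 row, Slc2a1, which was higher. Over all genes DESeq2 called 3.18% higher and 2.37% lower. The median log2 fold change was 0.01 over the 39 rows and -0.06 over all genes tested, and 20 of the 39 rows were positive. The median size of the log2 fold change, whatever its sign, was 0.46 over the rows and 0.38 over all genes tested.

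**Figure D1:**
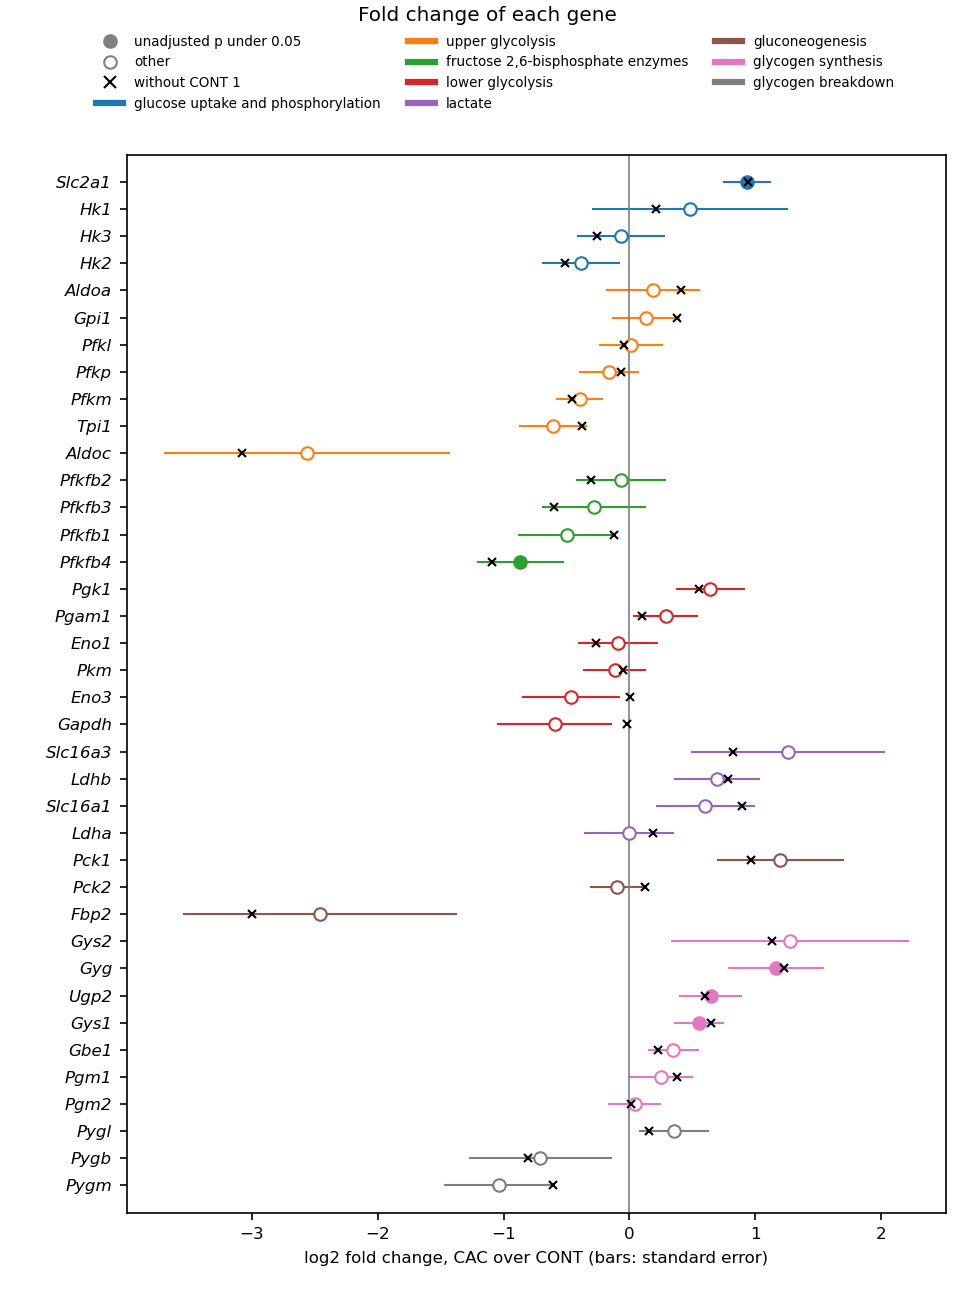
Log2 fold change of CAC over CONT for each of the 38 genes (for Aldoa, the row with most reads), colored by role, with bars of 1 standard error. Filled points are genes with an unadjusted p under 0.05 in edgeR's test, and crosses give the value without CONT replicate 1. All 7 genes of glycogen synthesis lie above 0 and all 4 PFKFB genes lie below 0, while Aldoc at -2.56 and Fbp2 at -2.46 have the widest bars on the lower side. Over all genes tested, 45.9% were above 0.

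The promoters of the 5 genes with an unadjusted p under 0.05 are shown because they are the genes the comparison turns on. Each run holds 250 bases before and 50 bases from the RefSeq transcript start (GRCm38.p6), 5′ to 3′ on the gene's strand. Capitals mark matches to 4 short motifs searched on both strands: the E-box CACGTG, the core ACGTG bound by hypoxia-inducible factors (HIF), the cAMP response element half-site TGACG and the forkhead site TGTTTAC. The E-box holds the HIF core on both strands. Ugp2 had a second promoter, at chr11:21370580-21370879, with no match.
Slc2a1, chr4:119108495-119108794, plus strand: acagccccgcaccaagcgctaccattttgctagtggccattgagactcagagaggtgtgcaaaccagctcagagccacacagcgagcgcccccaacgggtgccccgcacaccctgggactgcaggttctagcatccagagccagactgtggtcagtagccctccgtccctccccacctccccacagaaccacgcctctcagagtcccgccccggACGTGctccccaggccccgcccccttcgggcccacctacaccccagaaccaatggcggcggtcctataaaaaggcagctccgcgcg
Gyg, chr3:20155067-20155366, minus strand: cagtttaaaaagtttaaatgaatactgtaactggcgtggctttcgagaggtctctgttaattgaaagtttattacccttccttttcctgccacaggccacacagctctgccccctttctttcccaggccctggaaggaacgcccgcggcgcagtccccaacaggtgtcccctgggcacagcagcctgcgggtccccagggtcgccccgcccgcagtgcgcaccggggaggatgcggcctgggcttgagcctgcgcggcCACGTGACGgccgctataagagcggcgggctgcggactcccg
Gys1, chr7:45434589-45434888, plus strand: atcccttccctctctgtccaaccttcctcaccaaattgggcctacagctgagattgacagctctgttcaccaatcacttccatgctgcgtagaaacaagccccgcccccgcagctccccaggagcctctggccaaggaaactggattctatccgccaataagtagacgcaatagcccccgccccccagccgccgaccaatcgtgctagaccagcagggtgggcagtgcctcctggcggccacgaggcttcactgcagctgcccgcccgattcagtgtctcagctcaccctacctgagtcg
Ugp2, chr11:21371218-21371517, minus strand: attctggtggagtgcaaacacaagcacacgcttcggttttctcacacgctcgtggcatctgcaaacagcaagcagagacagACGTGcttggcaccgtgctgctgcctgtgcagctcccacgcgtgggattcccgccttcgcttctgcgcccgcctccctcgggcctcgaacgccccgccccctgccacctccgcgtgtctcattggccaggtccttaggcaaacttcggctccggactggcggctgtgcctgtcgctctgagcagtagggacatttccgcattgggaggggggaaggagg
Pfkfb4, chr9:108991652-108991951, plus strand: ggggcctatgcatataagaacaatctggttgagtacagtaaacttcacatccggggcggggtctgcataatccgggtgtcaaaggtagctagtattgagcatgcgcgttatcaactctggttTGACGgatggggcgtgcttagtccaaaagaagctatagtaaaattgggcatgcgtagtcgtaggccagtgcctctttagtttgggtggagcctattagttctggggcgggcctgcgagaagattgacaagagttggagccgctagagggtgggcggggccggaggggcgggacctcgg

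The Slc2a1 promoter held 1 HIF core, which began at -36, and the Ugp2 promoter held 1 at -169. The Gyg promoter held an E-box that began at +9, with a TGACG that overlapped its end and began at +13. The Pfkfb4 promoter held a TGACG at -128, and these letters were not found in the window of Gys1. RefSeq promoters were matched for 35 of the 38 genes, 53 promoters in all. The HIF core was found in 49.1% of the 53 promoters and in 19.6% of all 32851 promoters of the table. The E-box was found in 13.2% against 7.2%, TGACG in 26.4% against 20.8%, and the forkhead site in 1.9% against 3.6%. The median GC content was 59.0% in the 53 promoters and 52.7% in all promoters. These are descriptions of letters, with no test, and base composition differed between the sets.

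Slc2a1 (ENSMUSG00000028645, chr4:119108711-119137983) brings glucose into cells without insulin. Its level was 20.9, 21.7 and 20.7 CPM in CONT replicates 1 to 3, and 34.4, 38.5 and 47.9 CPM in CAC replicates 1 to 3. The groups did not overlap, and the CONT libraries were close together, at 21.1 ± 0.549 CPM (SD, n = 3). The CAC libraries were at 40.3 ± 6.94 CPM (SD, n = 3). CAC was higher by 0.93 on the log2 scale (SE 0.19), a 1.91-fold higher level (edgeR adjusted p = 0.224), and DESeq2's adjusted p was 0.00133. Slc2a1 was the only member with an unadjusted p under 0.05 in the main fit and in each of the 14 alternatives. Its log2 fold change was 0.80 to 1.08 when 1 library was left out.

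Slc2a1 is also used by neutrophils and endothelial cells. For all 7 neutrophil markers on the list the lowest CAC value exceeded the highest CONT value, with a summed level of 5.17 to 58.0 CPM in CONT and 173 to 1139 CPM in CAC. Ly6g, which defines neutrophils, was at 0 to 0.136 CPM in CONT and 0.657 to 3.25 CPM in CAC. The summed level of 6 endothelial markers was 1115 to 1550 CPM in CONT and 1576 to 1653 CPM in CAC, and 1 of the 6, Vwf, did not overlap between the groups. Log2 fold changes were 1.02 for Vwf, 0.54 for Pecam1, 0.26 for Kdr, 0.09 for Tek, -0.08 for Cdh5 and -0.10 for Emcn. Without CONT replicate 1 they were 0.69, 0.81, 0.45, 0.21, 0.18 and 0.51. The summed level of 8 T and B cell markers was 17.0 to 23.5 CPM in CONT and 6.87 to 14.0 CPM in CAC, with 4 of the 8 lower with no overlap and 1 higher. The sums of 10 macrophage markers were 488, 1207 and 1244 CPM in CONT replicates 1 to 3 and 592 to 1023 CPM in CAC, so that they overlapped through CONT replicate 1 alone, while Cd14 and Mertk, 2 of the 10, were higher in CAC with no overlap (log2 fold changes 1.19 and 1.37). Of 7 fibroblast and progenitor markers 4 were lower in CAC with no overlap and 1 was higher, with sums of 1828 to 2347 CPM in CONT and 1345 to 1911 CPM in CAC. The 5 erythroid markers summed to 5678 CPM in CONT replicate 1, 261 and 392 CPM in CONT replicates 2 and 3, and 1853 to 2439 CPM in CAC. The shares of all genes tested with no overlap were 11.8% higher and 10.7% lower. The part of these cells in the level of Slc2a1, or of any gene below, was not tested.

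The hexokinases trap glucose in the cell by phosphorylation. Hk2, the insulin-regulated form of fat and muscle, had a log2 fold change of -0.38 (SE 0.31), with 101 to 163 CPM in CONT and 71.4 to 135 CPM in CAC. Hk3, found mainly in myeloid cells, was low in every library, at 5.53 to 9.37 CPM, with a log2 fold change of -0.07 (SE 0.35). The groups overlapped for both genes. Hk1 is described with the genes of the testis.

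**Figure D2:**
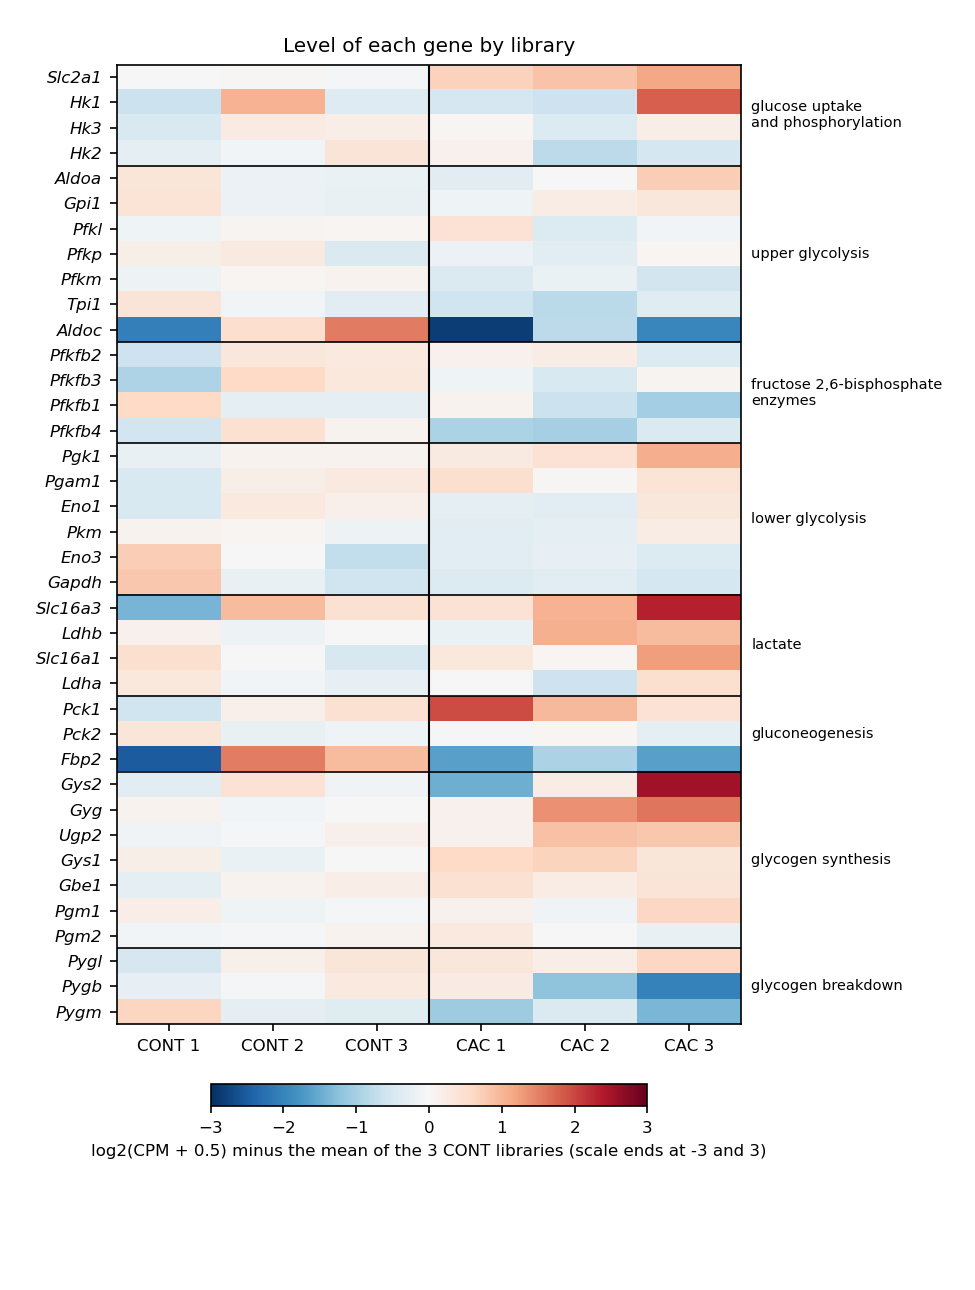
Level of each of the 38 genes in each library as log2(CPM + 0.5) minus the mean of the 3 CONT libraries, on a color scale that ends at -3 and 3, with genes grouped by role. Slc2a1 is red in all 3 CAC libraries, Gyg in CAC replicates 2 and 3 only, and Aldoc and Fbp2 are blue in CONT replicate 1 as well as in CAC.

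The enzymes of upper glycolysis carry glucose 6-phosphate to triose phosphates. Pfkm (ENSMUSG00000033065, chr15:98092589-98132451), the muscle form of the committing enzyme phosphofructokinase 1, was at 27.8, 32.2 and 33.5 CPM in CONT and 23.0, 27.0 and 21.1 CPM in CAC. The groups did not overlap, but CAC replicate 2 was only a little under CONT replicate 1, and the log2 fold change was -0.39 (SE 0.19, edgeR adjusted p = 0.417). With CONT replicate 1 left out that of Pfkm was -0.46 (unadjusted p under 0.05, edgeR adjusted p = 0.294). Tpi1 (ENSMUSG00000023456, chr6:124810586-124814296), which interconverts the triose phosphates, was at 489, 356 and 303 CPM in CONT and 248, 215 and 291 CPM in CAC. Again no library overlapped, and the log2 fold change was -0.61 (SE 0.27, edgeR adjusted p = 0.392). Without CONT replicate 1, the highest library, that of Tpi1 was -0.38.

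The other phosphofructokinases did not separate the groups. Pfkl, the liver form, had a log2 fold change of 0.01 (SE 0.25), and Pfkp, the platelet form, one of -0.16 (SE 0.24). Gpi1, the isomerase of hexose phosphates, had a log2 fold change of 0.13 (SE 0.27). Aldoa, the main aldolase of fat and muscle, was at 1026 to 1511 CPM in CONT and 948 to 1955 CPM in CAC, and its log2 fold change was 0.19 (SE 0.37). The other row named Aldoa (ENSMUSG00000114515) held 0 to 51 reads per library.

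Aldoc, the brain-type aldolase, had a log2 fold change of -2.56 (SE 1.14, edgeR adjusted p = 0.395). It was at 0.981, 8.19 and 17.5 CPM in CONT and 0.370, 3.07 and 1.09 CPM in CAC, so that CONT replicate 1 lay among the CAC libraries. Without CONT replicate 1 the log2 fold change was -3.08 with an unadjusted p under 0.05 and an edgeR adjusted p of 0.263. DESeq2's adjusted p was then 0.0183 in place of 0.153. The log2 fold change of Aldoc was -1.59 without CONT replicate 3 and -3.59 without CAC replicate 2, with edgeR adjusted p of 0.71 and 0.687.

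The PFKFB enzymes make and remove fructose 2,6-bisphosphate, the activator of phosphofructokinase 1. All 4 genes had negative log2 fold changes with TMM and with relative log expression scaling, though Pfkfb2 turned to 0.022 without the filter on low counts. Pfkfb4 (ENSMUSG00000025648, chr9:108991778-109032228) was at 11.1, 23.3 and 17.9 CPM in CONT and 8.38, 8.19 and 12.2 CPM in CAC. CONT replicate 1 was below CAC replicate 3, so the groups overlapped. Its log2 fold change was -0.87 (SE 0.34, edgeR adjusted p = 0.362). Without CONT replicate 1 it was -1.09, and DESeq2's adjusted p, 0.197 with all libraries, was then 0.0122. Without CONT replicate 2 it was -0.60.

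Pfkfb3, the inducible form, was by far the most expressed of the 4, at 232 to 667 CPM in CONT and 321 to 464 CPM in CAC. Its log2 fold change was -0.28 (SE 0.41), and without CONT replicate 1 it was -0.60 (unadjusted p under 0.05, edgeR adjusted p = 0.315). Without CONT replicate 2 the sign turned, to 0.033 (edgeR adjusted p = 0.98). Pfkfb1, the liver and muscle form, had a log2 fold change of -0.50 (SE 0.39), which was -0.12 without CONT replicate 1, and Pfkfb2, the heart form, one of -0.06 (SE 0.36).

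The enzymes of lower glycolysis take triose phosphates to pyruvate. Pgk1 (ENSMUSG00000062070, chrX:106187100-106203699), which makes the first ATP of the pathway, was at 89.2, 112 and 111 CPM in CONT and 124, 141 and 223 CPM in CAC. The groups did not overlap, and CAC replicate 3 was far above the rest. Between the groups the log2 fold change was 0.64 (SE 0.27, edgeR adjusted p = 0.379), and 0.36 without CAC replicate 3. Of the 50-base windows of Pgk1 transcripts, 53.9% were also found in 5 other genes, which held 106 reads in all against 18425 for Pgk1. How reads that match several genes were counted is not given in the sources used here, so its counts are uncertain.

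Pgam1, phosphoglycerate mutase, had a log2 fold change of 0.29 (SE 0.26), Eno1, the ubiquitous enolase, one of -0.09 (SE 0.32), and Pkm, pyruvate kinase of muscle and most other tissues, one of -0.12 (SE 0.25). Their counts are uncertain too, with 36.2%, 26.0% and 25.8% of windows shared, and the genes that share windows with Eno1 held 77190 reads against its 62800. Eno3, the muscle enolase, had a log2 fold change of -0.46 (SE 0.39), which was 0.01 without CONT replicate 1. Gapdh, glyceraldehyde 3-phosphate dehydrogenase, held only 91 to 130 reads in a library. Of its 50-base windows, 25.1% were shared with 223 other genes, which held 20501 reads in all against 698 for Gapdh. Its log2 fold change, -0.59 (SE 0.46), was -0.02 without CONT replicate 1, and its level is not used below.

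The lactate genes pass between pyruvate and lactate and move lactate across the membrane. Ldha, the dehydrogenase form that favors lactate, was at 717 to 1057 CPM in CONT and 552 to 1180 CPM in CAC, and its log2 fold change was -0.0020 (SE 0.36). Ldhb, the heart form that favors pyruvate, was at 66.0 to 80.1 CPM in CONT. It was at 63.0, 152 and 140 CPM in CAC, so that CAC replicates 2 and 3 stood above CONT and CAC replicate 1 below it. Ldhb had a log2 fold change of 0.70 (SE 0.34, edgeR adjusted p = 0.426). Slc16a3 (MCT4), a lactate exporter of glycolytic cells, was at 1.52 to 9.72 CPM in CONT and 6.61 to 26.3 CPM in CAC, with a log2 fold change of 1.26 (SE 0.77). It was 0.51 without CAC replicate 3 and 1.79 without CONT replicate 2, the ends of its range with 1 library left out. Slc16a1 (MCT1), which moves lactate in either direction, had a log2 fold change of 0.60 (SE 0.39), with 0.17 when CAC replicate 3 was left out and 0.89 when CONT replicate 1 was.

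Among the genes of gluconeogenesis, Pck1, cytosolic phosphoenolpyruvate carboxykinase and the key enzyme of glyceroneogenesis in fat, had the highest level per length of all members in the mean over the 6 libraries. Aldoa was above it in the CONT mean, at 329.9 FPKM, and in CAC replicate 3. Pck1 stood at 294.9 ± 100.3 FPKM (reads scaled to gene length and library size, SD, n = 3) in CONT and 690.3 ± 387.8 FPKM in CAC. In CPM its level was 794, 1332 and 1652 in CONT and 4689, 2365 and 1619 in CAC. CAC replicates 1 and 2 were above every CONT library, and CAC replicate 3 was just under CONT replicate 3. For Pck1 the log2 fold change was 1.20 (SE 0.51, edgeR adjusted p = 0.379). Without CAC replicate 3 it was 1.495, with an unadjusted p under 0.05. Without CAC replicate 1 it was 0.72.

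Pck2, the mitochondrial form, had a log2 fold change of -0.10 (SE 0.22). Fbp2, the muscle fructose bisphosphatase, was at 0.357, 13.6 and 8.81 CPM in CONT and 1.07, 2.02 and 1.06 CPM in CAC. CONT replicate 1 was the lowest library of all. Fbp2 had a log2 fold change of -2.46 (SE 1.09, edgeR adjusted p = 0.395). Without CONT replicate 1 it was -3.00, with an unadjusted p under 0.05 and an edgeR adjusted p of 0.2, and DESeq2's adjusted p was 4.39e-07. The log2 fold change of Fbp2 was -1.74 without CONT replicate 2 (edgeR adjusted p = 0.599) and -1.75 with the replicate number as a block.

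The genes of glycogen synthesis all had positive log2 fold changes, 7 of 7 under both scalings, where 45.9% of all genes tested were positive with TMM. Their median was 0.55 against -0.06 over all genes tested. The signs did not all hold with a library left out. Gys2 was at -0.44 without CAC replicate 3, and the Pgm2 row at -0.051 without CAC replicate 1. Of the 20 other glycogen genes tested 9 were positive, with a median of -0.08. With TMM the libraries of the groups did not overlap, with CAC higher, for Gbe1, Gyg and Gys1, 3 of the 7, as for 11.8% of all genes tested, and with relative log expression scaling Gyg overlapped. None had an adjusted p under 0.05 in edgeR's test. Gyg (ENSMUSG00000019528, chr3:20122084-20155317), the protein on which a glycogen particle is primed, was at 70.9, 62.5 and 65.9 CPM in CONT and 72.1, 172 and 202 CPM in CAC. CAC replicate 1 was barely above CONT, and CAC replicates 2 and 3 were far above it. Gyg had a log2 fold change of 1.16 (SE 0.38), a 2.24-fold higher level (edgeR adjusted p = 0.301, DESeq2 adjusted p = 0.0702).

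Gys1 (ENSMUSG00000003865, chr7:45434844-45456619), which lengthens the glucose chain, was at 148, 115 and 134 CPM in CONT and 201, 210.4 and 170.0 CPM in CAC. The groups did not overlap, and the spread within each was small. Gys1 had a log2 fold change of 0.55 (SE 0.20), a 1.46-fold higher level (edgeR adjusted p = 0.333). Without CONT replicate 1 it was 0.65, and DESeq2's adjusted p was then 0.00552 in place of 0.0992. Gys1 shares 310 exonic bases with Ruvbl2 on the opposite strand. The kit kept no strand, so reads of Gys1 and Ruvbl2 in these bases cannot be told apart, and the strand setting of the counting is not given in the sources used here.

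Ugp2 (ENSMUSG00000001891, chr11:21321138-21371201), which makes the UDP-glucose that glycogen synthase uses, was at 80.1, 84.7 and 95.7 CPM in CONT and 94.2, 161 and 153 CPM in CAC. As for Gyg, CAC replicates 2 and 3 were far above CONT and CAC replicate 1 was not. Ugp2 had a log2 fold change of 0.65 (SE 0.25, edgeR adjusted p = 0.351). Gbe1 (ENSMUSG00000022707, chr16:70313949-70569716), the branching enzyme, was at 72.2, 96.0 and 102 CPM in CONT and 123, 104 and 117 CPM in CAC. No library overlapped, though CAC replicate 2 was close to CONT replicate 3, and the log2 fold change was 0.35 (SE 0.20, edgeR adjusted p = 0.481).

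Gys2, the liver-type synthase that fat also uses, was at 8.47, 14.6 and 9.94 CPM in CONT and 3.57, 12.6 and 63.8 CPM in CAC. Its log2 fold change of 1.27 (SE 0.94) rested on CAC replicate 3, and was -0.44 without it, 1.85 without CAC replicate 1 and 0.34 with the replicate block. The phosphoglucomutases connect glucose 6-phosphate with glycogen. The row named Pgm2 (ENSMUSG00000025791, chromosome 4) had a log2 fold change of 0.04 (SE 0.21), and the row named Pgm1 (ENSMUSG00000029171, chromosome 5) one of 0.25 (SE 0.26). RefSeq gives these symbols to the opposite genes.

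**Figure D3:**
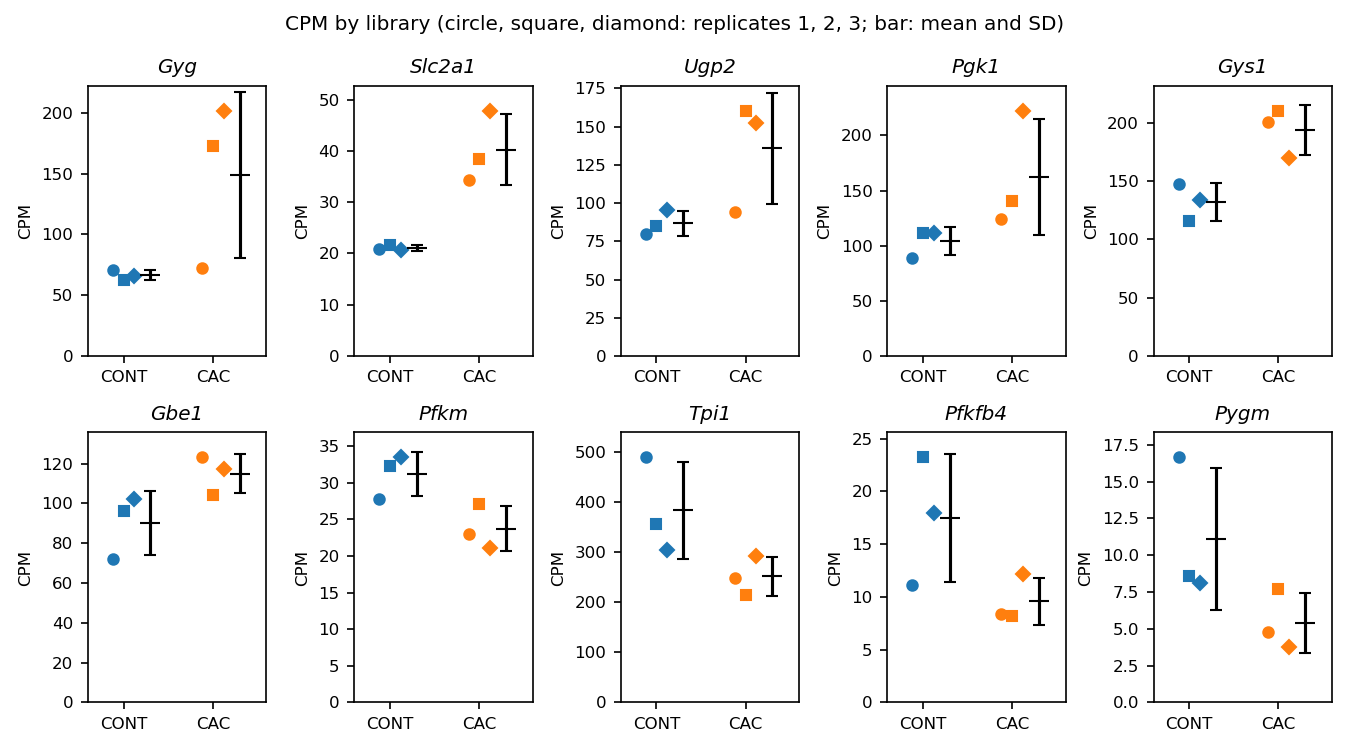
CPM in each library for the 10 genes with an unadjusted p under 0.05 in edgeR's test or with libraries that did not overlap, ordered by log2 fold change, with the mean and SD of each group (n = 3) as black bars. Axes start at 0. Slc2a1 and Gys1 show all CAC libraries well above CONT, whereas Gyg and Ugp2 have CAC replicate 1 at the CONT level and Pfkfb4 has CONT replicate 1 at the CAC level.

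The glycogen phosphorylases release glucose 1-phosphate from glycogen. Pygm (ENSMUSG00000032648, chr19:6384399-6398459), the muscle form, was at 16.7, 8.58 and 8.09 CPM in CONT and 4.76, 7.71 and 3.78 CPM in CAC. Every CAC library was below CONT, by the least for CAC replicate 2. Pygm had a log2 fold change of -1.03 (SE 0.44, edgeR adjusted p = 0.382), and -0.61 without CONT replicate 1. Pygb, the brain form and the most expressed per length, was at 265 to 385 CPM in CONT and 372, 136 and 76.6 CPM in CAC, with a log2 fold change of -0.71 (SE 0.57). It was -1.53 without CAC replicate 1, with an unadjusted p under 0.05, and -0.32 without CAC replicate 3. Pygl, the liver form, was at 110 to 199 CPM in CONT and 179 to 241 CPM in CAC, with a log2 fold change of 0.35 (SE 0.28).

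Pygm, Pfkm, Eno3 and Fbp2 are known as genes of skeletal muscle, and other muscle markers were also detected. The summed level of 14 muscle markers was 15.5 to 58.8 CPM in CONT and 20.4 to 54.9 CPM in CAC, and 2 of the 14 were higher in CAC with no overlap, near the 11.8% of all genes tested. Acta1, the skeletal muscle actin, was at 39.0 CPM in CONT replicate 1 and 40.1 CPM in CAC replicate 1, and at 3.55 to 7.41 CPM in the other libraries. Ckm, the muscle creatine kinase, was at no more than 2.02 CPM in any library. The part of muscle RNA in these levels was not tested.

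Hk1, the hexokinase of most tissues, was at 44.8, 144 and 53.7 CPM in CONT and 49.8, 45.4 and 244 CPM in CAC. CONT replicate 2 and CAC replicate 3 stood far above the other 4 libraries, which were alike. Hk1 had a log2 fold change of 0.48 (SE 0.78), -0.76 without CAC replicate 3, 1.20 without CONT replicate 2 and -0.05 without both of these libraries. The same libraries held the transcripts of sperm-specific glycolytic enzymes. Ldhc, the testis lactate dehydrogenase, was at 172 and 197 CPM in CONT replicate 2 and CAC replicate 3 and at 0 to 1.45 CPM elsewhere. Pgk2, the testis phosphoglycerate kinase, was at 35.3 and 68.5 CPM there and at 0 to 0.814 CPM elsewhere. The protamine gene Prm2 was at 321 and 518 CPM there and at 0 to 5.24 CPM elsewhere. The part of testis RNA in the level of Hk1 was not tested.

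**Figure D4:**
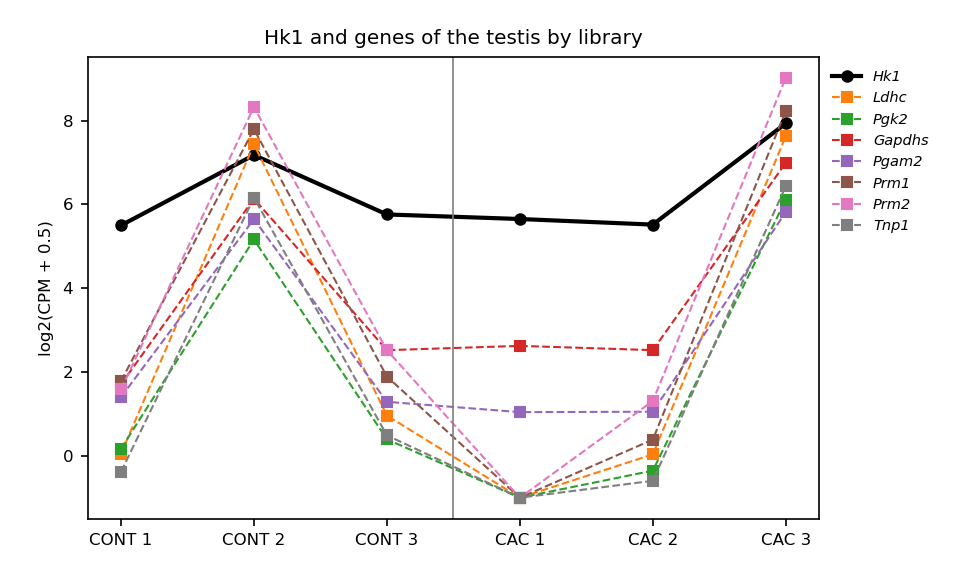
Level of Hk1 (black) and of 7 genes known from the testis (colored squares, dashed) in each library as log2(CPM + 0.5). Lines only join the libraries of a gene. Hk1 and all 7 testis genes peak in CONT replicate 2 and CAC replicate 3.

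Within families of paralogs, the form that prevailed was read from its share of the family's summed FPKM. Hk2 gave 65.8% ± 13.8 (SD, n = 3) of hexokinase FPKM in CONT and 56.3% ± 22.0 in CAC. Among the phosphorylases, Pygb gave 71.2% ± 1.45 in CONT and 50.9% ± 20.7 in CAC. The share of Pygl in CAC replicates 1 to 3 was 26.5%, 45.8% and 67.1%, against 20.9% to 27.5% in CONT. CAC replicate 3 was thus the only library in which Pygl held most of the phosphorylase FPKM. Gys1 gave 86.8% ± 4.76 of synthase FPKM in CONT and 82.3% ± 19.9 in CAC. Ldha gave 84.6% ± 2.03 of lactate dehydrogenase FPKM in CONT and 76.5% ± 11.9 in CAC.

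Pck1 gave 98.1% ± 1.18 of the phosphoenolpyruvate carboxykinase FPKM in CONT and 99.2% ± 0.329 in CAC, and its libraries did not overlap. The share of the leading paralog was tested in 11 families with an exact two-sided permutation test, which cannot go below p = 0.1 with 3 libraries against 3. The smallest p was 0.1, for Pck1, and the adjusted p was 0.9 for each of the 11 shares. Aldoa at 99.2% and 99.9% and the Pgm2 row at 90.1% and 88.6% also led their families in CONT and CAC. Pfkl led phosphofructokinase 1 at 55.2% and 59.6%, Pfkfb3 the PFKFB enzymes at 73.3% and 79.1%, Eno1 the enolases at 88.2% and 91.0%, and Slc16a1 the lactate transporters at 86.4% and 82.6%.

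**Figure D5:**
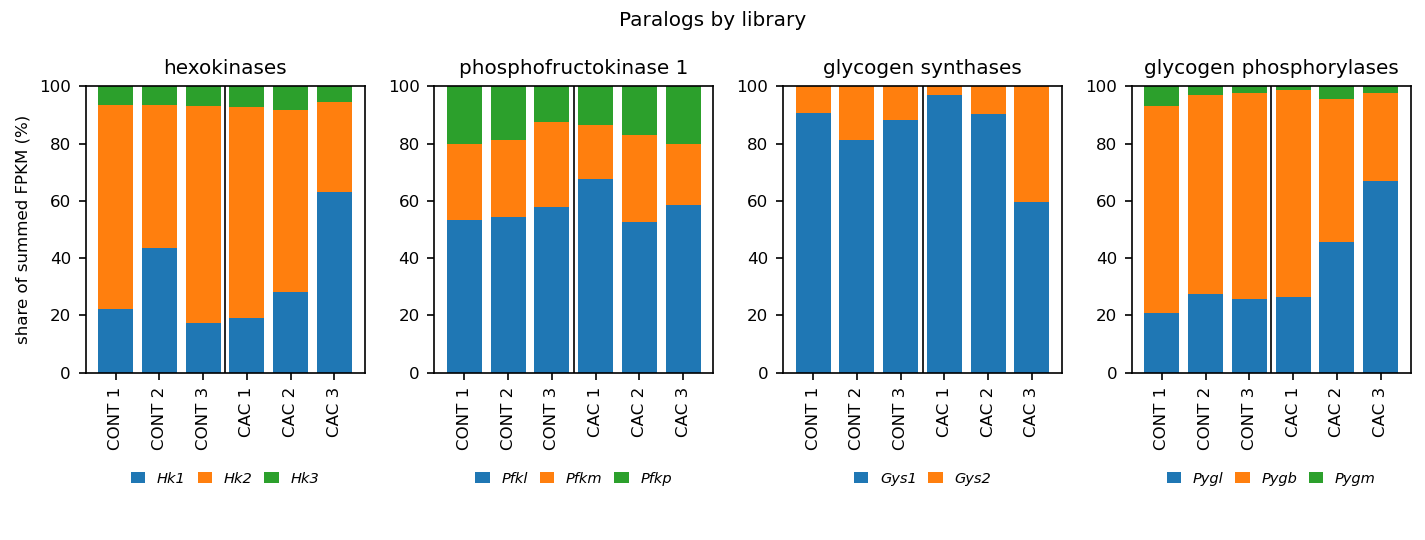
Share (%) of each paralog in the summed FPKM of its family in each library, as stacked bars, for hexokinases, phosphofructokinase 1, glycogen synthases and glycogen phosphorylases. The share of Hk1 is largest in CONT replicate 2 and CAC replicate 3, and the share of Pygl is larger in CAC replicates 2 and 3 than in any CONT library.

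Of 67 other genes of the pathway and its regulators that were listed, 66 were found and 61 were tested. In edgeR's test 5 of the 61 were higher at an unadjusted p under 0.05, where 6.31% of all genes tested were. Lower were 2 of the 61, where 6.95% of all genes tested were. None of the 61 had an adjusted p under 0.05. DESeq2 gave 5 an adjusted p under 0.05, 4 higher and 1 lower, where it called 3.18% of all genes higher and 2.37% lower. Of the 15 regulators 14 were positive, with a median log2 fold change of 0.38, whereas 45.9% of all genes tested were positive. The other lists had 13 of 21 (glycolysis and gluconeogenesis), 9 of 20 (glycogen) and 2 of 5 (glycerol 3-phosphate) positive. Their medians were 0.13, -0.08 and -0.49. Myc, a transcription factor known to drive glycolytic genes, was at 11.8 to 14.4 CPM in CONT and 33.0 to 68.8 CPM in CAC, with a log2 fold change of 1.84 (SE 0.33, edgeR adjusted p = 0.215, DESeq2 adjusted p = 0.000142).

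Arnt, the partner of the HIF alpha subunits, was at 65.7 to 89.2 CPM in CONT and 122 to 146 CPM in CAC (log2 fold change 0.78, SE 0.19, edgeR adjusted p = 0.249, DESeq2 adjusted p = 0.004). Foxo1, a forkhead factor restrained by insulin, had a log2 fold change of 0.90 (SE 0.24, edgeR adjusted p = 0.266, DESeq2 adjusted p = 0.0335). Mlxip (MondoA), a glucose-sensing factor, had one of 0.93 (SE 0.27, edgeR adjusted p = 0.275, DESeq2 adjusted p = 0.0345). The groups did not overlap, with CAC higher, for these 4 regulators and for Crebbp (log2 fold change 0.27, SE 0.16). These were 5 of the 15 regulators, and 11.8% of all genes tested were higher with no overlap. The HIF subunits Hif1a and Epas1 had log2 fold changes of 0.15 (SE 0.20) and 0.25 (SE 0.34), and their groups overlapped.

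Pcx, pyruvate carboxylase, which feeds oxaloacetate to Pck1, was at 744 to 1562 CPM in CONT and 2216 to 2813 CPM in CAC, with no overlap (log2 fold change 0.97, SE 0.37, edgeR adjusted p = 0.351, DESeq2 adjusted p = 0.0517). The log2 fold change of Pcx was 0.71 without CONT replicate 1, and DESeq2's adjusted p was then 0.00149. Slc37a4, the glucose 6-phosphate transporter of the endoplasmic reticulum, was at 28.4 to 40.3 CPM in CONT and 15.4 to 22.8 CPM in CAC (log2 fold change -0.83, SE 0.23, edgeR adjusted p = 0.273, DESeq2 adjusted p = 0.0492). Pklr, the liver pyruvate kinase, was at 0.0892, 15.5 and 6.60 CPM in CONT and 0.246, 1.29 and 0.302 CPM in CAC (log2 fold change -3.59, SE 1.49, edgeR adjusted p = 0.376). In CONT replicate 1 it was at the CAC level, as Aldoc and Fbp2 were, and without that library the log2 fold change was -4.14, with a DESeq2 adjusted p of 0.000352 in place of 0.0897. None of the 20 other glycogen genes tested, among them the phosphorylase kinase subunits, had an unadjusted p under 0.05.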

How the data were processed

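RNA of the eWAT of 3 CONT and 3 CAC mice was sequenced after poly(A) selection with a kit that keeps no strand. Reads were cleaned with in-house scripts of the authors and aligned to the mouse genome of Ensembl release 94. The submitters' processing notes name HISAT2 2.0.5 and featureCounts 1.5.0-p3. The deposited counts are whole reads per gene, not normalized, and the authors' FPKM values are the same reads per gene length and a scaled library size, which was 1.21 to 1.25 times the TMM-adjusted size used here in every library. Groups come from the deposited labels. Gene coordinates are GRCm38 as deposited.

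The members and all lists were chosen with earlier results of these data known. Counts were tested in R 4.3.3 with edgeR 4.0.16 (TMM, filterByExpr, robust quasi-likelihood fit, Benjamini-Hochberg adjustment over all genes tested), with group as the only term. The SE is the log2 fold change over the root of F. Alternatives were DESeq2 1.42.0, limma 3.58.1 on log2(FPKM + 1) and log2(FPKM + 0.1) with at least 0.5 FPKM in 3 libraries, on which scale changes of low genes are understated, relative log expression scaling, no filter, a replicate block and each library left out. One CPM stood for 11.2 to 26.5 reads. Tests were tried on simulated counts with less spread than these data, which does not show how well they work here. All 38 genes are named, and values in every library are given where the unadjusted p was under 0.05 or the groups did not overlap. Single-library levels of Hk1, Aldoc, Fbp2, Pck1, Ldhb, Gys2, Pygb, Pklr and some marker genes were added after seeing them. Loci with no symbol held at most 0.639% of counts.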

Additional observations from a re-analysis of the deposited data

How the results depend on the processing

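With 3 libraries per group, a common dispersion of 0.265 and 1 library that stood apart, counts of genes past a threshold moved easily. No gene had an adjusted p under 0.05 with edgeR, and 2294 had an unadjusted p under 0.05, against 959 with an adjusted p under 0.05 in DESeq2, 1 of them a member, and 5 with limma on log2(FPKM + 1) and 6 with the pseudocount 0.1. Members at an unadjusted p under 0.05 are given with the share of all genes tested in parentheses. Higher members numbered 7 without the filter (4.11%), 6 with DESeq2 (4.38%), 6 with relative log expression scaling (6.61%) and 1 to 6 with a library left out (3.55% to 7.3%). Lower members numbered 0 without the filter (3.52%), 0 with limma on log2(FPKM + 1) with its filter (6.3%) or without (2.97%), 5 with DESeq2 (5.06%) and 0 to 5 with a library left out (3.69% to 8.28%). Without CONT replicate 1 they were 2 higher (7.3%) and 5 lower (8.28%), without CONT replicate 2 they were 1 (4%) and 0 (5.3%), and without CAC replicate 1 they were 6 (6.31%) and 1 (5.37%). Without both CONT replicate 2 and CAC replicate 3, a choice made after seeing the data, 1 was higher (2.17%) and 0 lower (2.83%). With no overlap 6 members were then higher (19.4%) and 5 lower (18.7%). Other pathway genes with an unadjusted p under 0.05 numbered 12 with DESeq2 (9.44%), 5 to 16 with 1 library left out (7.24% to 15.6%) and 4 without both libraries (5%). Members with no overlap ranged from 5 to 9 higher and from 3 to 9 lower with 1 library left out, where 13.3% to 18.1% and 13.1% to 19.6% of all genes tested did not overlap. The causes of these moves were not tested.

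The labels do not say whether the replicate numbers pair the mice. Same-numbered libraries correlated at 0.268, -0.227 and -0.264 in their deviations from the group means. The highest value was 0.492, for CONT replicate 2 and CAC replicate 3. These values cannot settle the pairing, because the deviations within a group depend on each other. With the replicate block, 1 gene of all had an adjusted p under 0.05, 3 members were higher and 2 lower at an unadjusted p under 0.05 (5.23% and 6.29% of all genes tested), and the log2 fold change of Pfkl was -0.028.

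Changes of sign were seen only for members with an edgeR adjusted p of 0.576 or more, and their cause was not tested. Without the filter the log2 fold changes were 0.016 for Hk3, 0.022 for Pfkfb2 and 0.073 for Ldha. DESeq2 gave 0.017 for Ldha, and limma gave -0.0016 for Pfkl with log2(FPKM + 1), with or without its filter, and -0.0039 with the pseudocount 0.1. With libraries left out, the range was -0.76 to 1.20 for Hk1, -0.26 to 0.12 for Hk3, -0.056 to 0.38 for Gpi1, -0.20 to 0.20 for Pfkl, -0.31 to 0.27 for Pfkfb2 and -0.60 to 0.033 for Pfkfb3. It was -0.26 to 0.43 for Aldoa, -0.18 to 1.48 for its other row, -0.33 to 0.074 for Eno1, -0.75 to 0.0054 for Eno3, -0.31 to 0.023 for Pkm and -0.36 to 0.24 for Ldha. It was -0.20 to 0.12 for Pck2, -0.44 to 1.85 for Gys2, -0.066 to 0.41 for Pgm1 and -0.051 to 0.17 for Pgm2. Without both CONT replicate 2 and CAC replicate 3 the values were -0.052 for Hk1, -0.056 for Gpi1, 0.27 for Pfkfb2, -0.26 for Aldoa, -0.19 for Gys2 and -0.066 for Pgm1. Shares, CAC minus CONT in percentage points, ranged from -18.2 to 2.89 for Hk2, -2.96 to 10.6 for Pfkfb3, -1.84 to 5.73 for Eno1, -6.77 to 1.69 for Slc16a1, -11.8 to 6.84 for Gys1 and -2.90 to 0.932 for Pgm2 with a library left out.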

Other observations

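Ppp1r3g, a subunit that brings protein phosphatase 1 to glycogen, held 0, 1 and 0 reads in CONT replicates 1 to 3 and 0, 113 and 25 reads in CAC replicates 1 to 3, and did not pass the filter on low counts. Slc2a3 (GLUT3), the high-affinity glucose transporter, was at 14.8, 119 and 24.7 CPM in CONT and 87.8, 35.5 and 66.2 CPM in CAC, with a log2 fold change of 0.26 (SE 0.78). Its highest library was CONT replicate 2. Aqp3, a channel for glycerol, was at 22.6 CPM in CAC replicate 2 and at no more than 0.438 CPM in any other library. These genes were chosen after their values were seen.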
